A study of Mus musculus with 2 samples.

Results

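Yin Yang 1 (YY1) is a zinc finger transcription factor that works with a small set of chromatin proteins, and 10 genes, Yy1 itself and 9 genes that encode such partners, were examined for YY1 occupancy in fat cells. The 10 were a given list, drawn up with earlier results of these libraries known, though not by a cut on any measured value. All were found among the 21883 protein-coding genes of the RefSeq table. They comprised YY1 itself, 5 genes of the INO80 complex (Ino80, Actr5, Actr8, Ruvbl1, Ruvbl2), the deubiquitinase gene Bap1 with the host cell factor gene Hcfc1, the Polycomb adaptor gene Rybp and the acetyltransferase gene Ep300. Every listed peak whose summit lay inside one of these genes or within 1 kb of a gene end was taken, 3 of 165 summits at room temperature and 7 of 1259 after cold.

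Collagenase digestion of inguinal white fat (iWAT), which lies under the skin, gave the mature adipocytes, and the donors were wild-type C57 males aged 8 to 10 weeks. One group of mice was kept at room temperature and the other was exposed to cold for 7 days. Both groups had the same genotype and the same anti-YY1 antibody, and each had 1 library. Although the titles say ChIP-seq, the protocol is CUT&Tag, where an antibody brings a transposase that cuts and tags DNA beside the bound protein. How many mice were used per library was not given in the sources used here. Names of room temperature peaks carry the number 30 and names of cold peaks the number 4, with no meaning stated for either number. Were they housing temperatures in °C, the baseline mice would have been kept warmer than their label says, and every room temperature value below would refer to that warmer housing. The groups follow the labels.

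YY1 recognises a short DNA element with the core ATGGC and can activate or repress the gene beside it, depending on the proteins it brings. INO80 is a remodelling machine that slides nucleosomes and is known to be recruited by YY1. BAP1 removes ubiquitin from histone H2A and is known to form a complex with HCFC1 and YY1, RYBP links YY1 to the Polycomb repressors, and p300 (Ep300) is a coactivator that acetylates histones and YY1 itself. A peak at any of these genes would place YY1 on the DNA of that gene, which is a different thing from YY1 and its partners meeting on chromatin.

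The promoter windows below are shown because they belong to genes with a peak, and because 1 of them lies inside the peak and carries the YY1 element. Each is 300 bases from RefSeq (GRCm38.p6, which mm10 names), from 250 bases before to 50 bases after an annotated transcription start, written 5′ to 3′ along the gene. Of the 10 genes, 7 had such a window. Capitals mark matches on either strand to AANATGGC, GCCAT or ATGGCG, which overlap one another because all hold ATGGC or its reverse complement GCCAT. The windows are those of Hcfc1 (chrX:73966308-73966607, minus strand), Ep300 (chr15:81585964-81586263, plus strand) and Yy1 (chr12:108793047-108793346, plus strand).
Hcfc1: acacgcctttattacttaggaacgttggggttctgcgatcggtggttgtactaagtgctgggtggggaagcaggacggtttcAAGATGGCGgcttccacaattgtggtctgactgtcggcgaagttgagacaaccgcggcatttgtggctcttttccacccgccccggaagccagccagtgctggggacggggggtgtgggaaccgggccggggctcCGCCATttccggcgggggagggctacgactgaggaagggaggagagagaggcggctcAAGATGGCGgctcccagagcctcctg
Ep300: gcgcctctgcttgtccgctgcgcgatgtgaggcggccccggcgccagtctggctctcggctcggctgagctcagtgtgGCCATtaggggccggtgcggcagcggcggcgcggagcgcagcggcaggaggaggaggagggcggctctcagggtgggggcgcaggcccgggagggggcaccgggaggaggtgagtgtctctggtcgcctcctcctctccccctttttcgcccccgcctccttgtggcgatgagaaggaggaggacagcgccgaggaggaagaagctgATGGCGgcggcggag
Yy1: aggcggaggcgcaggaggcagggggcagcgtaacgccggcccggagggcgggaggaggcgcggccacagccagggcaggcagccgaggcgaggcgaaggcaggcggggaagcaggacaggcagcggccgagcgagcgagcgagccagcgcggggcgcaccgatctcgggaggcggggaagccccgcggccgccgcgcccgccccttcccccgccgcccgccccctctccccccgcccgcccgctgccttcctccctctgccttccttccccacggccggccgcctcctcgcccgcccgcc

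The Hcfc1 window held AANATGGC at 2 places, both as AAGATGGC, beginning 168 bp before and 24 bp after the annotated start, and a CGCCAT between them. The Ep300 window held ATGGC or GCCAT at 2 places and AANATGGC at none. The Yy1 window, with a GC content of 81%, held none of the 3 strings. Over 21237 promoter windows of protein-coding genes, AANATGGC was present in 6.36%, GCCAT in 38.8% and ATGGCG in 10.9%. AANATGGC was found in 312 of the 422 windows that held a cold summit (73.9%, exact 95% binomial interval 69.5 to 78.1) and in 60 of the 65 that held a room temperature summit (92.3%, 83 to 97.5). None of the printed windows held a listed summit, so the shares for windows with a summit describe other windows. A match describes letters and not a bound site, and other promoter features were not compared.

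After cold, 5 of the 10 genes had a listed YY1 peak, namely Yy1, Actr5, Actr8, Hcfc1 and Ep300, and at room temperature 2 did, Actr8 and Hcfc1. The share was 50% after cold (exact 95% binomial interval 18.7 to 81.3), where 6.43% of all protein-coding genes had a peak by the same rule. It was 20% at room temperature (2.52 to 55.6), where 0.864% of all genes did. The list was drawn up with earlier results of these libraries known, so the excess over all genes is not independent evidence. When only summits within 1 kb of a gene end were counted, 4 of the 10 genes remained after cold, without Yy1, beside 5.64% of all genes, and the same 2 at room temperature, beside 0.772%. With 1 library per condition no test between conditions was possible, and peaks missing from a list are not measured zeros. Pileups, the numbers of DNA fragments over a summit, were worked back from the authors' fold and p-value and are given with an exact 95% Poisson interval that covers counting error only.

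**Figure D1:**
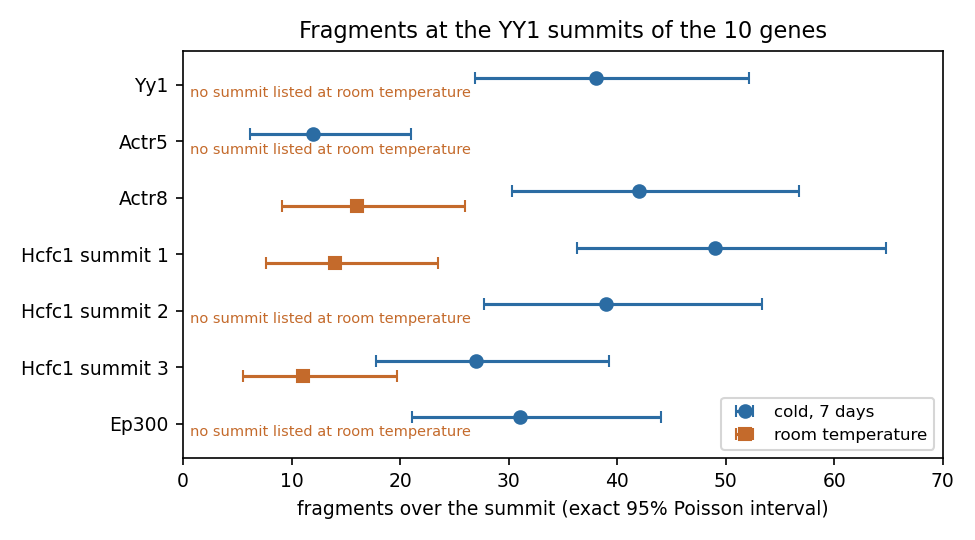
Fragments covering each listed summit (x axis) at the 5 genes with a peak, with exact 95% Poisson intervals. Hcfc1 summits 1 to 3 run from downstream of the annotated start to upstream of it. Cold values run from 12 at Actr5 to 49 at Hcfc1, and the 3 room temperature values from 11 to 16.

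The gene of YY1 itself carried a peak after cold and none at room temperature. The cold interval was 359 bp wide (chr12:108793957-108794315), and its summit was covered by 38 fragments (26.9 to 52.2) on a local background of 0.822 fragments, a fold enrichment of 21.4 in the authors' list. It ranked 150 of 1259 by −log10 q. The summit lay inside the gene, 860 bp downstream of the annotated start of the promoter window printed above and 1212 bp from the gene's outer end, and the interval began 610 bp beyond the window. The sequence under this peak is therefore not among those shown. Exons and introns are not told apart in the gene table used. YY1 is known from other work to regulate its own gene through a cluster of its elements in the first intron. At room temperature the nearest listed summit was 1918 kb away, near Wdr20. Of the 101 cold entries within 50 ranks of the Yy1 peak, 30 were also in the room temperature list (29.7%), so a peak of this strength was more often absent than present there.

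**Figure D2:**
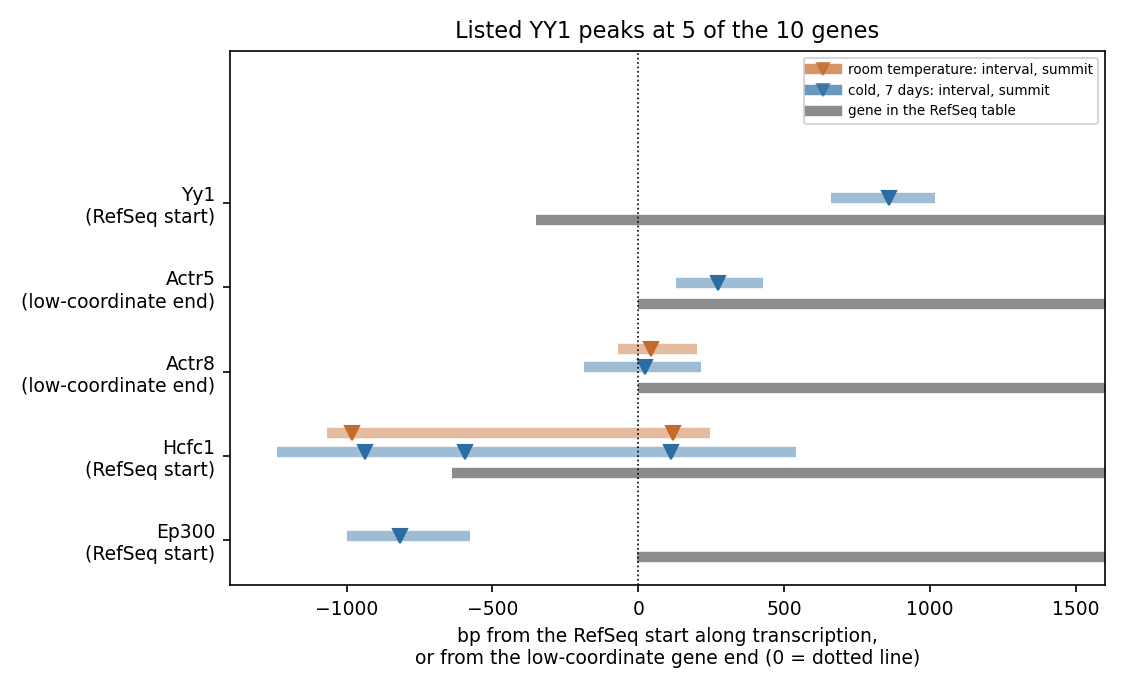
Listed intervals (bars) and summits (triangles) at the 5 genes, in bp from the RefSeq start along the direction of transcription, or from the gene's low-coordinate end for Actr5 and Actr8. The Actr8 summits of both libraries are 21 bp apart, the Hcfc1 interval reaches from upstream of the start into the gene in both libraries, and the Yy1 and Ep300 summits lie 860 bp downstream and 816 bp upstream of their starts.

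Among the 5 INO80 genes, the actin-related subunit genes Actr8 and Actr5 had peaks and the ATPase genes Ino80, Ruvbl1 and Ruvbl2 did not. The share after cold was 40% (exact 95% binomial interval 5.27 to 85.3), which includes the 6.43% of all protein-coding genes. At room temperature it was 20% (0.505 to 71.6), which includes 0.864%. Actr8, whose product helps INO80 grip DNA between nucleosomes, was in both lists. Of the 93 room temperature entries within 50 ranks of its summit there, all 93 were also in the cold list. The room temperature summit of Actr8 was covered by 16 fragments (9.15 to 26) and its cold summit by 42 (30.3 to 56.8). These intervals do not overlap, and the cold value was 2.625 times the room temperature value (exact 95% interval of the ratio of counts 1.45 to 5). Over 154 shared summits, those with no more than 10 background fragments, the same undivided ratio had a median of 3.28 (quartiles 2.57 and 4.17), and 26% of them had a lower ratio than Actr8. The cold value was the higher one at all 154, so the direction at Actr8 was that of every shared summit. The Actr8 ratio thus stood just above the lower quartile of the shared peaks. Divided by the ratio of the lowest listed backgrounds of both libraries, the Actr8 ratio was 2.48.

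Both Actr8 summits lay just inside the gene, 44 bp (room temperature) and 23 bp (cold) from its low-coordinate end, and the intervals spanned that end (chr14:29978269-29978540 and chr14:29978151-29978554). The room temperature interval was 272 bp wide and the cold one 404 bp. In the authors' lists the fold enrichment was 9.61 at rank 43 of 165 and 18.5 at rank 161 of 1259.

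Actr5, which encodes the subunit that pairs with INO80C in the complex and is needed for its remodelling activity, had the weakest peak of the 5 genes. It was listed after cold only, with 12 fragments (6.2 to 21) on a background of 0.663, a fold enrichment of 7.82 and rank 989. The interval was 300 bp wide (chr2:158625011-158625310), and the summit lay inside the gene, 274 bp from its low-coordinate end. Of the 100 cold entries within 50 ranks of it, 0 were in the room temperature list, which allows a share of up to 3%. Absence from the room temperature list was thus shared by all 100 of these entries. The Actr5 and Actr8 summits after cold, 12 and 42 fragments, had intervals that do not overlap.

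The 3 ATPase genes of the complex had no summit inside the gene or within 1 kb of it. Ino80, the catalytic subunit, was 308.8 kb from the nearest cold summit, at Rpap1, and 9489 kb from the nearest room temperature summit, at Zc3h6. Its promoter window held ATGGCG or its complement at 2 places, AANATGGC at none, and the gene still had no listed peak. Ruvbl1 and Ruvbl2 encode the paired AAA+ ATPases that INO80 shares with other complexes. Ruvbl1 was 380.9 kb from a cold summit, at Rpn1, and 1590 kb from one at room temperature. Ruvbl2 was the closest of the genes without a peak, at 52.6 kb from a cold summit of 11 fragments (5.49 to 19.7) near Dhdh and 526.1 kb from a room temperature summit. Neither window held any of the 3 strings, which says only that these letters are not in these 300 bases.

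Hcfc1 carried the broadest YY1 interval of either list. HCFC1 is an adaptor that ties DNA-binding factors to histone-modifying enzymes and is known for its part in cell growth. Its interval was 1312 bp wide at room temperature (chrX:73966112-73967423), where the median interval was 311.5 bp, and 1783 bp after cold (chrX:73965815-73967597), where the median was 361 bp. It ranked 1 of 162 and 1 of 1225 by width. The room temperature interval held 2 summits, as many as any in that list, and the cold interval held 3, which only 3 of the 1225 cold intervals did. Of the room temperature entries within 50 ranks of its 2 summits there, 64 of 74 and 100 of 101 were also in the cold list. The printed Hcfc1 window lies wholly inside both intervals.

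The strongest Hcfc1 summit after cold was the one just inside the annotated start. It was covered by 49 fragments (36.3 to 64.8), with a fold enrichment of 31.9 at rank 66, and lay 111 bp downstream of the start. The room temperature summit 9 bp away had 14 fragments (7.65 to 23.5), a fold enrichment of 4.45 and rank 140 of 165. These intervals do not overlap. The ratio was 3.5 (1.9 to 6.86), and 60.4% of the shared summits had a lower one. The nearest AANATGGC match in the window was centred 84 bp from the cold summit and 92 bp from the room temperature summit. The local background differed here, at 2.37 fragments at room temperature and 0.57 after cold, so the ratio of the authors' fold enrichments was 7.15, above the interval of the ratio of fragments.

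Upstream of the annotated start, Hcfc1 had a further pair of cold summits. The gene itself extends past that start, to an outer end on the upstream side. The summit 936 bp upstream lay 298 bp outside this end, and the summit 593 bp upstream lay inside the gene, 45 bp from it. The one 936 bp upstream had 27 fragments after cold (17.8 to 39.3), and the room temperature summit 46 bp from it had 11 (5.49 to 19.7). Those intervals overlap, and the ratio was 2.45 (1.18 to 5.48), with a lower ratio at 20.8% of the shared summits. The one 593 bp upstream was listed after cold only, with 39 fragments (27.7 to 53.3) at rank 113, although the room temperature interval covers its position. The order of the summits differed between libraries by −log10 q, since the upstream summit ranked above the start summit at room temperature (ranks 77 and 140) and below it after cold (ranks 261 and 66). By fragments the start summit was the higher one in both libraries. At room temperature 14 and 11 fragments cannot be told apart within counting error.

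Bap1, the enzyme partner of HCFC1, had no peak. Its nearest summit was 1273 kb away in both libraries and was the one at Actr8, which lies on the same chromosome. Its window held none of the 3 strings. The pair Bap1 and Hcfc1 therefore had 1 gene with a peak in each library, the same gene (50%, exact binomial interval 1.26 to 98.7). After cold this interval includes the 6.43% of all protein-coding genes. At room temperature its lower end lies above the 0.864% of all genes. The pair was listed with earlier results of these libraries known, so that excess is not independent evidence. Rybp, the adaptor between YY1 and the Polycomb repressors, lay furthest from YY1 peaks of the 10 genes, at 3023 kb from a cold summit, near Uba3, and 10141 kb from a room temperature summit.

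Ep300 had a cold peak upstream of the gene. The summit was covered by 31 fragments (21.1 to 44) on a background of 0.97, with a fold enrichment of 16.2 at rank 272. It lay 816 bp upstream of the annotated start and 811 bp outside the gene, in an interval of 424 bp (chr15:81585214-81585637) that ended 326 bp before the printed window. The promoter strings shown above are thus 646 bp or more from the summit. No other protein-coding or lncRNA gene had an end within 1 kb of it. At room temperature the nearest listed summit was 119.8 kb away, at Rbx1, the shortest such distance among the 8 genes without a room temperature peak. Of the 101 cold entries within 50 ranks of the Ep300 peak, 15 were in the room temperature list (14.9%).

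**Figure D3:**
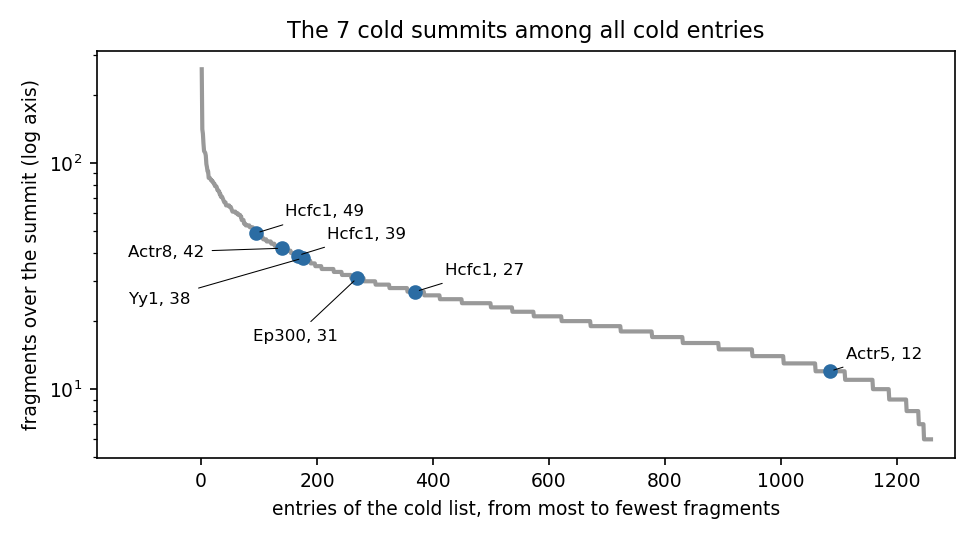
All 1259 cold entries ordered by fragments over the summit (log y axis), with the 7 summits at the 10 genes marked by gene and fragments. The Actr5 summit has 12 fragments and each of the others has 27 or more.

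Over the 5 genes, the cold summits had a median of 38 fragments, while all cold entries had a median of 20 (quartiles 15 and 29). Hcfc1 contributed 3 of the 7, so the summits are not independent of one another. At the top, 92.2% of cold entries had fewer fragments than the start summit of Hcfc1, and at the bottom 11.8% had fewer than Actr5. The 3 room temperature summits, of 16, 14 and 11 fragments, were close to that list's median of 13. None of the 10 summits had an end of another protein-coding or lncRNA gene within 1 kb, so each could be given to 1 gene.

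The Yy1 and Ep300 summits and the upstream Hcfc1 summits lay further from an annotated start than most. Of 1226 cold summits on chromosomes with starts in the promoter table, 943 lay within 1 kb of a RefSeq start (76.9%). Summits beyond 1 kb are left out of the shares that follow, so these do not describe the whole list. Of the 943, 20 lay more than 800 bp from the start (2.12%), and the median distance was 101 bp. The Yy1 summit (860 bp), the Ep300 summit (816 bp) and the far upstream Hcfc1 summit (936 bp) were 3 such cold summits. More than 500 bp away lay 72 of the 943 (7.64%), with the Hcfc1 summit at 593 bp among them. Both upstream Hcfc1 summits were nearer to the outer end of the gene, at 298 bp and 45 bp. These counts use only the starts in the promoter table, which is not complete, and unlisted starts nearer to these summits are possible. Actr5 and Actr8 have no window in that table.

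A missing room temperature entry leaves a wide range of values. At the lowest background of that list, 0.537 fragments, its lowest listed −log10 p of 5.18 needs 6 fragments, and at its median background 7. The unlisted sites at Yy1, Actr5 and Ep300 could hold fewer than this, or more on a higher local background, and their ratios are not known. The 2 genes listed in both libraries gave ratios of 2.625, 3.5 and 2.45 at their 3 matched summits.

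**Figure D4:**
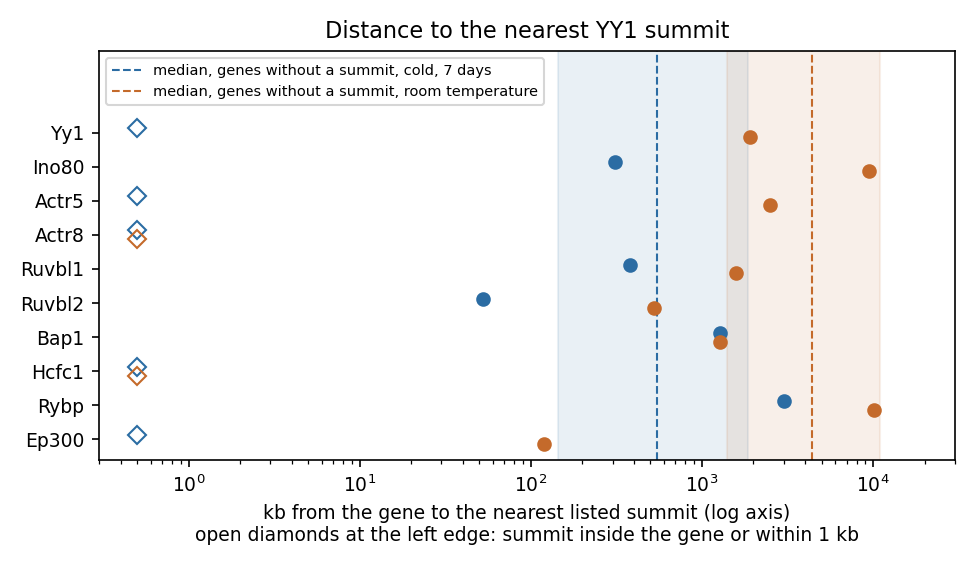
Distance from each of the 10 genes to the nearest listed summit (kb, log axis), with open diamonds for genes that have one. Dashed lines and bands are the median and quartiles over protein-coding genes without a summit within 1 kb, and 4 of the 5 genes with no cold peak lie within or to the left of the cold band.

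Distances of the genes without a peak were set beside those of all protein-coding genes without one. After cold the median over 20477 such genes was 547.1 kb (quartiles 143.3 and 1857). Ruvbl2 was nearer than most, with 12.3% of these genes closer, and Rybp further than most, with 84.4% closer. Ino80, Ruvbl1 and Bap1 lay between the quartiles. At room temperature the median was 4384 kb, and the distances of the 8 genes without a peak ran from 119.8 kb at Ep300 to 10141 kb at Rybp.

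The other genes of the same machineries were counted from 8 lists with 66 genes in all. After cold 15 of the 66 had a peak (22.7%, 13.3 to 34.7), beside 6.43% of all protein-coding genes, and at room temperature 2 did (3.03%, 0.369 to 10.5), beside 0.864%. The 15 cold summits had a median of 16 fragments, with a range of 9 to 59. Of these 15, 6 had another gene within 1 kb, unlike the summits at the 10 genes. The lists were written with results of these libraries known and were not matched on expression, and what part expression has in these shares was not tested.

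Of the other 10 INO80 subunit genes, Ino80b and Ino80e had a cold peak, each with 12 fragments (6.2 to 21), 46 bp and 156 bp upstream of an annotated start, and the Ino80e summit also lay within 1 kb of Hirip3. With the 5 INO80 genes above, 4 of 15 had a cold peak (26.7%, 7.79 to 55.1), beside 6.43% of all protein-coding genes. Actr8 was the strongest of them. Of the 11 genes of other complexes that use Ruvbl1 and Ruvbl2, Srcap, the ATPase that exchanges histone H2A.Z, had 27 fragments after cold (17.8 to 39.3), and Znhit1, its zinc finger subunit, had 9 (4.12 to 17.1) and 27 in the room temperature and cold libraries. The Znhit1 summits also lay within 1 kb of Plod3, and the Srcap summit within 1 kb of 1700008J07Rik.

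Among the 9 other genes of the BAP1 complex, Asxl2, an activating subunit of BAP1, had 16 fragments after cold (9.15 to 26) and Ogt, the enzyme that attaches N-acetylglucosamine to HCFC1 and other proteins, had 9 (4.12 to 17.1). The Asxl2 summit also lay within 1 kb of 1110002L01Rik. The intervals of the cold shares of the other INO80 genes (2.52 to 55.6), the Ruvbl1 and Ruvbl2 complexes (2.28 to 51.8) and the BAP1 complex (2.81 to 60) include the 6.43% of all genes. Of 8 genes of HCFC1 partners, 3 had a cold peak (37.5%, 8.52 to 75.5). Zfp143, a zinc finger factor that binds promoters, had 17 fragments (9.9 to 27.2) in the room temperature library and 59 (44.9 to 76.1) in the cold library. The cold count was above that of any summit of the 10 genes, but its interval overlaps that of the Hcfc1 start summit (49, 36.3 to 64.8). Gabpa, an ETS family factor, had 12 beside an end of Atp5j, and Ash2l, a subunit of histone H3K4 methyltransferases, had 15. Of all 76 genes examined, Hcfc1, Actr8, Zfp143 and Znhit1 were in both lists. These 4 were also all that had a room temperature peak (5.26%, 1.45 to 12.9), beside 0.864% of all protein-coding genes. The share of all genes in both lists was not counted.

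Of 15 Polycomb genes 3 had a cold peak (20%, 4.33 to 48.1), Pcgf1 with 22 fragments (13.8 to 33.3), Pcgf2 with 11 and L3mbtl2 with 13. This interval includes the 6.43% of all protein-coding genes, and the other 12 genes, Ezh2, Eed, Suz12, Ring1 and Rnf2 among them, had no listed peak in either library. The L3mbtl2 summit lay 11.9 kb beyond the end of Ep300. Among 7 genes of enzymes that add or remove histone acetyl groups, 1 had a cold peak (14.3%, 0.361 to 57.9, which also includes 6.43%), Kat8, the acetyltransferase of histone H4, with 24 fragments (15.4 to 35.7). The other 6, among them Crebbp, the close relative of Ep300, had no listed peak. The YY1 relatives Yy2 and Zfp42 had none either, a count of 0 of 2 whose interval reaches 84.2%. At the share of all genes, counts of 0 in lists this short are usual.

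**Figure D5:**
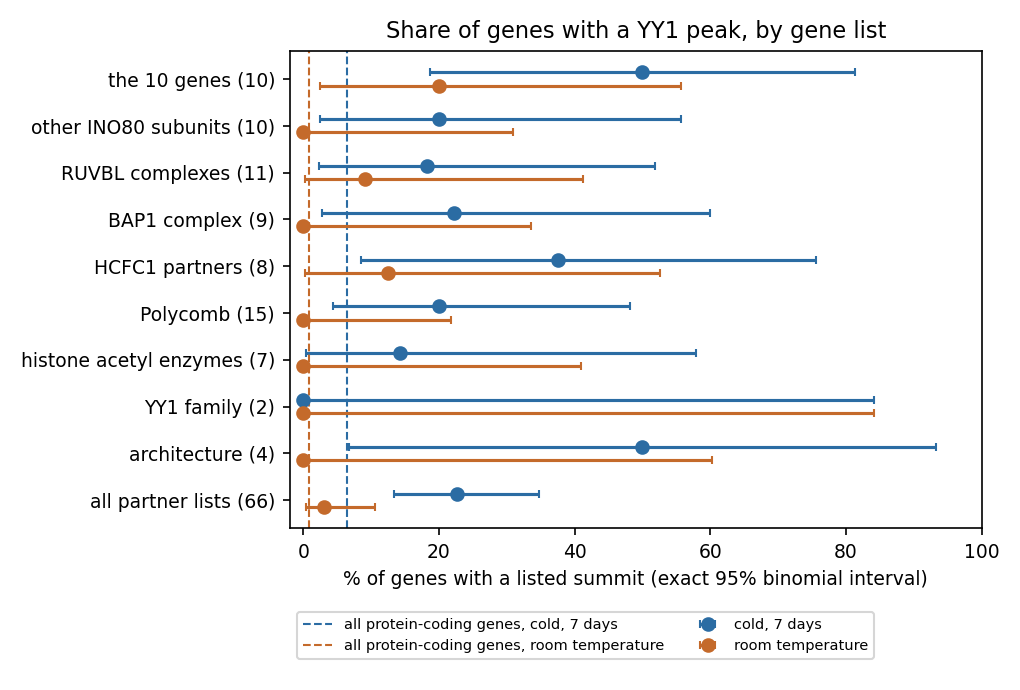
Percent of genes with a listed summit inside the gene or within 1 kb of an end, by list and library, with exact 95% binomial intervals and the number of genes in brackets. Dashed lines are the shares over all protein-coding genes, 0.864% and 6.43%. Of the lists plotted, the cold intervals of the 10 genes, the HCFC1 partners, the architecture list and all partner lists together lie above the cold line, and the other plotted cold intervals include it. The HCFC1 partner and architecture counts include Ash2l and Rad21, which do not count when only gene ends are used.

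The YY1 element was also read in the promoter windows of these partner genes. AANATGGC was present in 6 of the 12 partner genes that had both a cold peak and a window, namely Ino80b, Ino80e, Znhit1, Gabpa, Pcgf2 and Smc3. It was present in 4 of the 42 with a window and no cold peak, namely Asxl1, Kmt2a, Bmi1 and Ctcf. Counted by window, it was in 6.36% of all protein-coding promoter windows and in 73.9% of those that held a cold summit. A cold summit lay in a window of each of the 6 genes except Pcgf2. Kat8 and Ogt also had a cold summit in a window, without AANATGGC. The contrast between these partner genes thus cannot be told apart from the share over all windows with a summit. Of the 7 genes of the main list with a window, only Hcfc1 held AANATGGC, and it was 1 of 3 with both a peak and a window. No listed summit lay in any of these 3 windows, so the 73.9% is not a like share for them.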

How the data were processed

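YY1 occupancy was profiled by CUT&Tag in 2 libraries. The submitters' processing notes name the mm10 build, MACS2, BWA, SAMtools, DESeq2 and deepTools. Versions, settings, control library and duplicate handling were not given in the sources used here. Each deposited peak list covers 1 library, with a score, a fold enrichment (a ratio), a −log10 p and a −log10 q per summit from the authors. DESeq2 was not used here, and the total depth is unknown.

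Summits, counted from 1, were assigned to genes of RefSeq GRCm38.p6 within 1 kb, and peaks were shared where intervals overlapped by at least 1 bp. The whole pileup k that met fold = (k + 1) / (background + 1) and the Poisson −log10 p was taken. All 165 and 1259 entries matched within 0.0002, and 1 cold entry had a second solution. Steps were tested on simulated data. Python 3.11.15 and scipy 1.17.1 were used. PCR copies are possible among fragments.

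The 10 genes and the lists were chosen with earlier results of these data known. Named were all 10 genes, their summits, the nearest gene of each, and every partner gene with a peak. Alternatives covered the window, gene ends, the nearest gene, q, overlap, depth scaling and the motif.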

Additional observations from a re-analysis of the deposited data

How the results depend on the processing

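The number of the 10 genes with a peak stayed within 1.5 times the reported count under every alternative run, at 2 genes at room temperature in all of them and at 4 or 5 after cold. A window of 500 bp left out Ep300, and gene ends only left out Yy1. The partner count at room temperature went from 2 to 1 (Zfp143) when each summit counted for its nearest gene only, since the Znhit1 summit is nearer to another gene's end. After cold it ran from 12 to 15, and gene ends only left out Ash2l, Pcgf2 and Rad21. The number of the 10 genes with the motif in a window went from 1 (AANATGGC) to 3 with GCCAT and to 3 with ATGGCG, which are shorter strings. The ratio at the Hcfc1 start summit went from 3.5 to 7.15 with the authors' fold enrichments, whose backgrounds differ. The other 35 values stayed within their interval or within 1.5 times. Scaling by the lowest background per bp was added after seeing the data. No library could be left out, and no paired analysis was possible because there is 1 library per condition. Unknown depth and missing replicates limit all values.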

Other observations

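The cohesin genes Smc3 and Rad21, which hold chromatin loops together, had a cold peak and no room temperature peak, while Ctcf and Smc1a, the others of this list of 4, had none (2 of 4 after cold, 50%, exact 95% binomial interval 6.76 to 93.2, beside 6.43% of all protein-coding genes, and 0 of 4 at room temperature, beside 0.864%). The Smc3 summit had 27 fragments (exact 95% Poisson interval 17.8 to 39.3) and lay 5 bp inside the annotated start, in a promoter window that holds AANATGGC. The Rad21 summit had 23 fragments (14.6 to 34.5) and lay within Rad21 at 1827 bp from the nearer gene end, within 1 kb of the lncRNA gene Gm52217. Rad21 no longer counted when only gene ends, or only the nearest gene of each summit, were used.

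YY1 peaks do not measure expression, so the labelled cell type could not be checked by marker levels. Of 6 adipocyte marker genes (Adipoq, Plin1, Fabp4, Pparg, Lipe and Cidec), 0 had a listed peak in either library (exact 95% binomial interval up to 45.9%). The lists of macrophage, preadipocyte or fibroblast and brown or beige adipocyte markers, with 4 genes each, also had 0, and the endothelial list of 4 had 1 after cold, Pecam1. Beside the all-gene shares of 0.864% (room temperature) and 6.43% (cold), counts of 0 or 1 in lists of this size do not set them apart from other genes.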
